A study of Rattus norvegicus with 2 samples.

Results

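The subject is 7 miRNA hairpin entries of the rat heart: the pair mir-195 and mir-497, and mir-322, mir-503, mir-351, mir-450a and mir-542 from a second cluster. They were found by name in the deposited count tables, rows marked with an asterisk being left out, and all 7 were listed. They stand among 191 unmarked entries with a name used once, and all 7 passed the minimum summed count of 20, as did 173 of the 191. The study compared hearts enlarged by swimming training, called physiological hypertrophy, with untrained hearts. The swim library came from left ventricle of Wistar rats aged 16 weeks that had swum for 90 minutes in each of 2 daily sessions over 8 weeks. The control library came from the same tissue of Wistar rats of the same age that belonged to the control group. The number of rats behind each library is not stated in the labels. With 1 library per group there was no spread between animals, so no test was made, and every interval below is a 95% interval for counting error only. PCR copies of a molecule cannot be told from separate molecules here, so these intervals are the least uncertainty that applies.

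A miRNA represses messenger RNAs that pair with its seed, here bases 2 to 8 of the mature strand. The miR-15/16 family, to which mir-195, mir-497 and mir-322 belong, is known for lowering cyclins, cyclin-dependent kinases and other drivers of cell division. In mouse heart, miR-195 is known to be more abundant after birth, when cardiomyocytes leave the cell cycle, and to act on the checkpoint kinase Chek1. In mouse myoblasts, miR-322 and miR-503 are known to be induced as the cells stop dividing and form muscle.

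The mature sequences below are from RefSeq (build GRCr8), printed 5′ to 3′ with the seed in capitals. They are shown because the seed decides which entries may act on the same messages. The first 4 are the seed-sharing members and the member nearest to them.
rno-miR-195-5p: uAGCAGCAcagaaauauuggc
rno-miR-497-5p: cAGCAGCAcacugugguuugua
rno-miR-322-5p: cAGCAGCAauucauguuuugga
rno-miR-503-5p: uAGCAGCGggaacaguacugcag
rno-miR-351-5p: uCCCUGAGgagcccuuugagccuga
rno-miR-450a-5p: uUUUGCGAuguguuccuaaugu
rno-miR-542-3p: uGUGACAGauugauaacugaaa
Entries outside the 7 that were found to share one of these seeds are shown for comparison.
rno-miR-16-5p: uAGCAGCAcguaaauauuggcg
rno-miR-15b-5p: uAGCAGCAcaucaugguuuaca
rno-miR-125a-5p: uCCCUGAGacccuuuaaccuguga
rno-miR-125b-5p: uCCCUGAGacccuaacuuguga

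The seed AGCAGCA was thus common to miR-195, miR-497, miR-322, miR-16 and miR-15b, while miR-503 had AGCAGCG. The seed of miR-351 was that of the miR-125 family. Among the 156 of 191 entries with a matched mature sequence, no other entry shared the seed of miR-450a or miR-542. Over the 21 bases that could be compared from the first base on, miR-195 and miR-16 had 19 in common, and miR-195 and miR-497 had 12. The tables name hairpins and not arms, so each count may hold reads of both arms. How reads with matches in more than 1 hairpin were counted is not stated in the labels. Some hairpin copies, such as mir-24-1 and mir-24-2, had equal counts in both libraries, while others, such as mir-128-1 and mir-128-2, did not. Reads shared by copies may thus enter the totals more than 1 time, which was not tested.

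In GRCr8 the Mir497 hairpin lies at chr10:55450171-55450239 and the Mir195 hairpin at chr10:55450495-55450581, both on the plus strand with 255 bases between them. In RefSeq's gene table the pair stands between the protein-coding genes Bcl6b and C10h17orf49. The other 5 hairpins lie on the minus strand of chromosome X and span 5309 bases. Read along that strand, Mir322 at chrX:137726147-137726241 comes first and Mir503 follows after 220 bases. Mir351 is 659 bases further on, Mir542 another 2861 bases and Mir450a1 another 1152 bases. Mir322, Mir503 and Mir351 lie within the span of the lncRNA gene LOC102550366, and the Mir450b-1 hairpin, not analysed here, lies between Mir542 and Mir450a1.

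Depth and the layout of the table bear on every ratio. The miRNA counts summed to 3219939 in swim and 2460845 in control, and levels are given as CPM, counts per 1000000 of these totals. An entry was called higher or lower in swim when its log2 ratio was at least 1 in size (2-fold) and its interval excluded 1. Of the 173 entries, 3.47% were called higher and 32.9% lower, and the median ratio was 0.666. Rows 1 to 81 of the table are sorted by ratio and the other 122 by control count. Entries of the first part with a ratio reached 838 counts or more in at least 1 library, and those of the second part never passed 795. The median ratio was 1.06 over the 75 entries compared in the first part and 0.458 over the 98 in the second. The entries mir-195, mir-322, mir-351 and mir-450a stood in the first part, and mir-497, mir-503 and mir-542 in the second. Whether this layout plays a part in the ratios was not tested.

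None of the 7 entries was called higher in swim (0 of 7, against 3.47% of all entries) and 1 was called lower, mir-497 (1 of 7, against 32.9%). By level, 1 of the 7 had a ratio above 1, mir-195, and 6 had ratios below 1. The median log2 ratio of the 7 was -0.26, beside -0.59 over all 173 entries. The members therefore spanned a range from 1.75 for mir-195 to 0.414 for mir-497, and on this scale the extremes belonged to the 2 hairpins that lie beside each other. These 2 stand in different parts of the table. Relative to the own part, the extremes were mir-503 at 1.82 and mir-351 at 0.717. RNA came from whole ventricle, so fewer cells of a type and less of a miRNA per cell cannot be told apart.

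**Figure D1:**
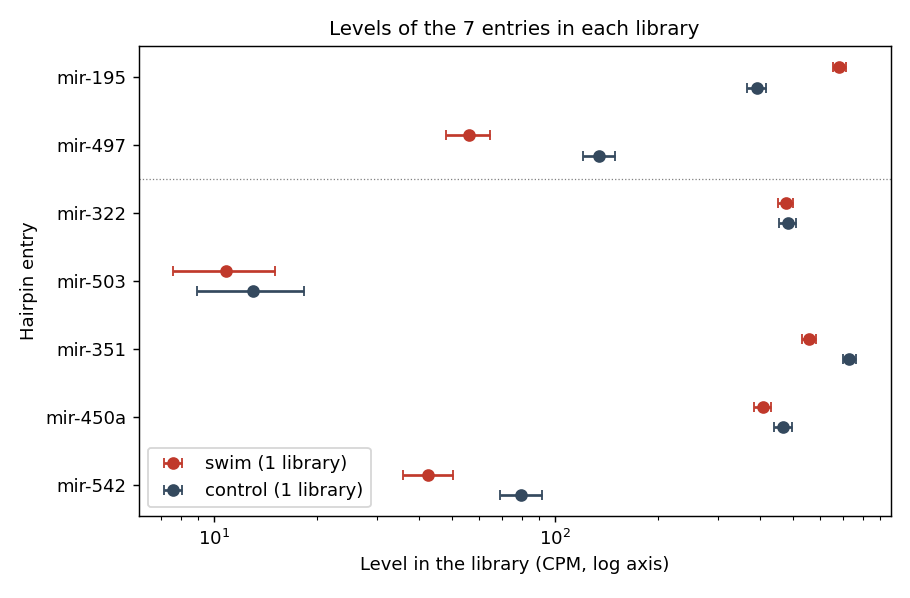
Level of each of the 7 entries in the swim library (red, upper point) and the control library (dark, lower point), in CPM on a log axis, 1 library per group; bars are exact Poisson 95% intervals. The swim point of mir-195 (682 CPM) lies right of its control point (390 CPM), that of mir-497 (55.9 CPM) lies left of its control point (135 CPM), and the points of mir-322 overlap.

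The entry mir-195 had 2197 counts in swim and 960 in control. These are 682 CPM in swim (95% exact Poisson interval 654 to 711) and 390 CPM in control (366 to 416). The intervals do not overlap, and the ratio was 1.75 (exact conditional interval 1.62 to 1.89), under the 2-fold rule. In order of ratio it stood 9th of the 173 entries and 8th of the 75 in its part of the table, where 6.67% were called higher. It ranked 55th in abundance in swim and 66th in control among the 191 entries. The call depended on the scaling: the ratio was 2.64 (2.45 to 2.85) with median-of-ratios factors, 2.16 (1.998 to 2.33) with TMM factors and 2.29 (2.12 to 2.47) with unscaled counts, a higher call under each. Among all entries 10.4%, 6.36% and 6.94% were called higher under those scalings. With a 1.5-fold rule in place of 2-fold, mir-195 was called higher (6.94% of all entries) and mir-497 and mir-542 lower (47.4%), and with a 3-fold rule none of the 7 was called (0.578% of all entries higher and 15% lower).

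The entry mir-497 went the other way. It had 180 counts in swim and 332 in control, or 55.9 CPM in swim (48.0 to 64.7) and 135 CPM in control (121 to 150). These intervals do not overlap either. The ratio was 0.414 (0.344 to 0.498), a lower call. Within its own part of the table this was an ordinary value: it ranked 62nd of 98 in ratio, 57.1% of those entries were called lower, and relative to the part's median its ratio was 0.905 (0.750 to 1.09). The call was lost with median-of-ratios factors at 0.626 (0.519 to 0.752), with TMM factors at 0.511 (0.424 to 0.614) and with unscaled counts at 0.542 (0.450 to 0.652). Of all entries 15%, 17.9% and 17.3% were called lower under these scalings. Its ratio was below 1 under each of the scalings tried, with an interval that held 1 only against the median of its table part.

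Together the pair held 2377 counts in swim and 1292 in control, a summed ratio of 1.41 (1.31 to 1.51). Within the pair mir-195 took 92.4% of the counts in swim (exact binomial interval 91.3 to 93.5%) and 74.3% in control (71.8 to 76.7%). For each count of mir-497 there were 12.2 counts of mir-195 in swim and 2.89 in control. Between the libraries this count ratio differed 4.22-fold (exact conditional interval 3.45 to 5.17), a value unaltered by scalings that multiply every ratio by 1 factor. It does cross the parts of the table, so it shrinks when each ratio is taken relative to its own part. On that scale the ratios were 1.64 (1.52 to 1.78) for mir-195 and 0.905 (0.750 to 1.09) for mir-497. An entry at the median of the first part changed 2.32-fold against one at the median of the second, and 19.9% of the 7350 pairs made of a first-part and a second-part entry changed more than mir-195 over mir-497.

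**Figure D2:**
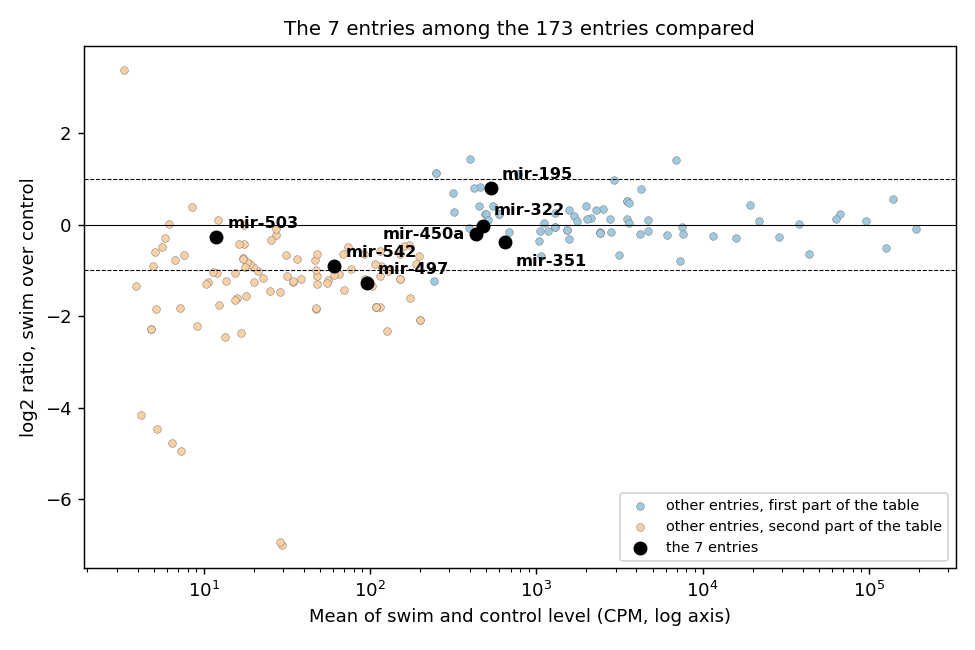
The log2 ratio of swim over control for the 173 entries against the mean level of both libraries (CPM, log axis), with the 7 entries in black and the others coloured by their part of the table; dashed lines mark the 2-fold rule. The entry mir-195 lies in the upper part of the cloud of its own part, while mir-497 and mir-542 lie inside the lower cloud of the second part, whose median log2 ratio was -1.12.

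As scaled to the miRNA totals, the ratios of the X chromosome cluster lay closer together than those of mir-195 and mir-497. Relative to the own part of the table they did not. There the cluster ran from 0.717 for mir-351 to 1.82 for mir-503, an entry with 67 counts in all. The pair had 1.64 for mir-195 and 0.905 for mir-497 on that scale. The 5 entries of the cluster summed to 4805 counts in swim and 4361 in control, or 1492 CPM in swim and 1772 CPM in control. The summed ratio was 0.842 (0.808 to 0.877). Median-of-ratios factors multiply this ratio by 1.51, TMM factors by 1.23 and unscaled counts by 1.31. Its point value thus passes 1 under each, and intervals of the sum were not computed there. No entry of the cluster was called in either direction as scaled to the miRNA totals. The 3 abundant entries lay between 0.763 and 0.986, and each passed 1 under median-of-ratios factors.

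The entry mir-322, the rat counterpart of human miR-424 and the miR-15/16 family member of the cluster, had 1530 counts in swim and 1186 in control. Its level was 475 CPM in swim (452 to 500) and 482 CPM in control (455 to 510), and these intervals overlap over most of their length. The ratio was 0.986 (0.913 to 1.06). It stood 49th of 173 entries in ratio. With median-of-ratios factors the ratio was 1.49 (1.38 to 1.61), with TMM factors 1.22 (1.13 to 1.31) and with unscaled counts 1.29 (1.20 to 1.39). Its direction therefore depends on the scaling. A row with the same name and an asterisk carried the same counts in both libraries and was left out as a repeat.

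The entry mir-503, encoded 220 bases from mir-322 and close to it in seed, was the rarest of the 7. It had 35 counts in swim and 32 in control. Its level was 10.9 CPM in swim (7.57 to 15.1) and 13.0 CPM in control (8.89 to 18.4). The ratio was 0.836 (0.503 to 1.39). A difference was not detectable at this depth, since the interval holds 1. It ranked 8th of the 98 entries in the second part, and relative to that part's median the ratio was 1.82 (1.10 to 3.04), which is not a call. The number of mir-322 counts per mir-503 count was 43.7 in swim and 37.1 in control, which differ 1.18-fold (0.702 to 1.97).

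The entry mir-351, which carries the miR-125 seed and is found in rodents, was the most abundant of the cluster. It had 1795 counts in swim and 1798 in control, nearly the same number from libraries whose totals differ 1.31-fold. Its level was 557 CPM in swim (532 to 584) and 731 CPM in control (697 to 765), without overlap. The ratio was 0.763 (0.714 to 0.815), 69th of 75 in its part. With unscaled counts it was 0.998 (0.935 to 1.07), with TMM factors 0.941 (0.881 to 1.00) and with median-of-ratios factors 1.15 (1.08 to 1.23), so its direction depends on the scaling.

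The entry mir-450a, at the far end of the cluster, had 1308 counts in swim and 1149 in control. Its level was 406 CPM in swim (385 to 429) and 467 CPM in control (440 to 495), with a ratio of 0.870 (0.803 to 0.943). This ratio lay above 1 at 1.31 (1.21 to 1.42) with median-of-ratios factors and at 1.14 (1.05 to 1.23) with unscaled counts. With TMM factors it was 1.07 (0.990 to 1.16), an interval that holds 1.

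The entry mir-542, whose 3p strand is known in human cells for targeting the mitotic protein survivin, had 137 counts in swim and 196 in control. Its level was 42.5 CPM in swim (35.7 to 50.3) and 79.6 CPM in control (68.9 to 91.6). The intervals do not overlap, and the ratio of 0.534 (0.426 to 0.668) fell just short of the 2-fold rule. It passed the rule when the row named Others, which names no miRNA, was added to the totals, at 0.494 (0.394 to 0.618). On that scale 37% of all entries were called lower and 2.89% higher. Within its part of the table it ranked 36th of 98, and relative to the part's median its ratio was 1.17 (0.931 to 1.46).

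As shares of the cluster's counts, mir-351 held 37.4% in swim (36.0 to 38.7%) and 41.2% in control (39.8 to 42.7%), and mir-322 held 31.8% in swim (30.5 to 33.2%) and 27.2% in control (25.9 to 28.5%). The share of mir-450a was 27.2% in swim (26.0 to 28.5%) and 26.3% in control (25.0 to 27.7%). For mir-542 it was 2.85% in swim (2.40 to 3.36%) and 4.49% in control (3.90 to 5.15%), and for mir-503 0.728% in swim and 0.734% in control. The intervals of mir-322, mir-351 and mir-542 do not overlap between the libraries, and those of mir-450a and mir-503 do. Counts of different miRNAs are not calibrated against each other, so these shares describe reads and not molecules.

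All 21 pairs among the 7 entries were compared by count ratio, which needs no scaling. For 16 pairs the interval of the change excluded 1, and of the other 5 pairs 4 held the rare mir-503. In all, 8 pairs changed at least 2-fold, each of which held mir-195 or mir-497. Among them, mir-195 with mir-497, mir-503 or mir-542, and mir-497 with mir-322 or mir-450a, cross the parts of the table, whose medians differ 2.32-fold. The share of pairs over all entries that change this much was not computed, so these counts have no background beside them. Against mir-195 the change was 1.77-fold (1.59 to 1.98) for mir-322, 2.29-fold (2.07 to 2.54) for mir-351 and 2.01-fold (1.80 to 2.25) for mir-450a, all in favour of mir-195 and all within the first part of the table. For mir-322 over mir-351 it was 1.29-fold (1.17 to 1.43) and for mir-322 over mir-450a 1.13-fold (1.01 to 1.27). Within the second part, mir-497 over mir-503 changed 0.496-fold (0.287 to 0.856), on 67 counts of mir-503 in all, while for mir-497 over mir-542 the interval held 1, at 0.776-fold (0.578 to 1.04). The other 3 X-linked members stand in the first part, so mir-497 could be set against them only across the parts.

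The order of ratios among the 7 is the same for the scalings that multiply every ratio by 1 factor, from mir-195 down through mir-322, mir-450a, mir-503, mir-351 and mir-542 to mir-497. By their count ratios, the neighbours mir-450a and mir-503, mir-503 and mir-351, and mir-542 and mir-497 in this order did not part beyond counting error, while mir-195 and mir-322, mir-322 and mir-450a, and mir-351 and mir-542 did. Median-of-ratios factors multiplied all ratios by 1.51, TMM factors by 1.23 and the use of unscaled counts by 1.31. Under these, mir-195 stayed above 1 and mir-497 and mir-542 below it, and the other 4 lay between 0.941 and 1.49.

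**Figure D3:**
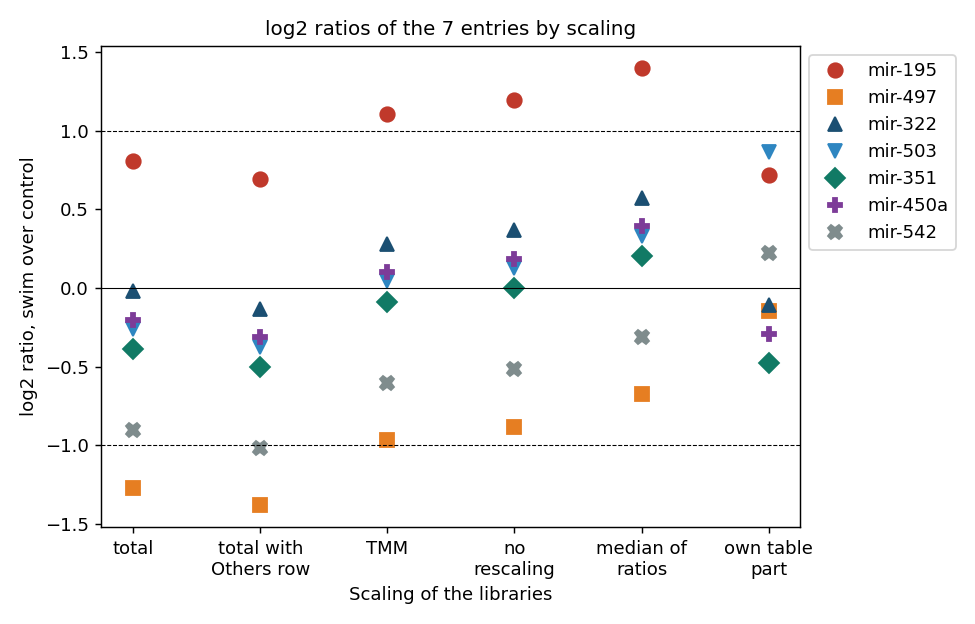
The log2 ratio of swim over control for each of the 7 entries under 6 scalings of the libraries; dashed lines mark the 2-fold rule. The points move together under the first 5 scalings, with mir-195 between 0.69 and 1.40 and mir-497 between -1.38 and -0.67; relative to the own part of the table, mir-497 lies at -0.15 and mir-195 at 0.72.

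Entries of the same seed were then set beside the members. Of the 5 entries found with the seed AGCAGCA, mir-16 was by far the most abundant, with 3650 CPM in swim and 3574 CPM in control, and a ratio of 1.02 (0.993 to 1.05). Its cluster partner mir-15b had 34.5 CPM in swim and 58.5 CPM in control, a ratio of 0.589 (0.456 to 0.760). Of these 5 entries 0 were called higher and 1 lower, mir-497 (3.47% and 32.9% of all entries), and their median log2 ratio was -0.02. With TMM factors, median-of-ratios factors or unscaled counts 1 was higher, mir-195, and 0 were lower. Summed over the seed, the counts were 15771 in swim and 11417 in control, or 4898 CPM in swim and 4639 CPM in control, a ratio of 1.06 (1.03 to 1.08). Under this seed mir-195 had 13.9% of the counts in swim (13.4 to 14.5%) and 8.41% in control (7.91 to 8.93%), and mir-497 had 1.14% in swim (0.981 to 1.32%) and 2.91% in control (2.61 to 3.23%). The share of mir-16 was 74.5% in swim and 77.0% in control, and that of mir-322 was 9.70% in swim and 10.4% in control. Counts with this seed were therefore mostly mir-16 in both libraries, and the makeup shifted toward mir-195 while the scaled sum differed by 1.06-fold. That sum moves with the scaling. Adding the Others row to the totals multiplies every ratio by 0.925, which takes it below 1, and TMM factors multiply it by 1.23.

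Since the sequences of miR-195 and miR-16 printed above differ at 2 of 21 compared bases, the way shared reads were counted in their rows could bear on mir-195. That was not tested. The count of mir-16 per count of mir-195 was 5.35 in swim and 9.16 in control, a change of 0.584-fold (0.538 to 0.633). Among the entries with the miR-351 seed, mir-125a had a ratio of 0.803 (0.770 to 0.837), and mir-125b-1 and mir-125b-2, which had nearly equal counts, had 0.924 and 0.927. The count of mir-125a per count of mir-351 changed 1.05-fold (0.973 to 1.14), an interval that holds 1. The sum over this seed had a ratio of 0.867 (0.847 to 0.887), in which mir-351 held 11.4% in swim and 13.0% in control. Multiplied by 1.23 for TMM factors, that ratio passes 1. The sum holds both mir-125b rows, which share the mature strand miR-125b-5p. Reads listed in both rows would be counted 2 times, which would make the share of mir-351 too low and the interval too narrow. Whether the 2 rows hold the same reads was not tested.

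How far neighbouring hairpins part between the libraries was described for the whole table, a comparison chosen after values were seen. Entries with 1 listed copy, on the same strand and with at most 10000 bases between their mature sequences in GRCr8, gave 24 neighbouring pairs. With the entry of higher ratio on top, the median change of the count ratio was 1.47-fold over the 24 pairs. It was 1.69-fold over the 9 pairs that cross the parts of the table and 1.41-fold over the 15 that do not. The crossing pairs include mir-195 over mir-497 and all neighbouring pairs of the X cluster. The only others were mir-25 over mir-106b (2.64-fold), mir-532 over mir-188 (2.25-fold), mir-16 over mir-15b (1.73-fold) and mir-127 over mir-434 (1.69-fold). The change of 4.22-fold for mir-195 over mir-497 ranked 4th of 24. The 3 pairs above it each rested on a listed count of 1 in swim, for mir-201 or mir-18a. The next below it was mir-25 over mir-106b at 2.64-fold (2.07 to 3.38), which also crosses the parts. Of the neighbours on the X cluster, mir-450a over mir-542 changed 1.63-fold (1.28 to 2.07), mir-351 over mir-542 1.43-fold (1.13 to 1.81) and mir-503 over mir-351 1.10-fold (0.656 to 1.84). These values and that of mir-322 over mir-503 ranked 11th, 14th, 22nd and 21st.

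**Figure D4:**
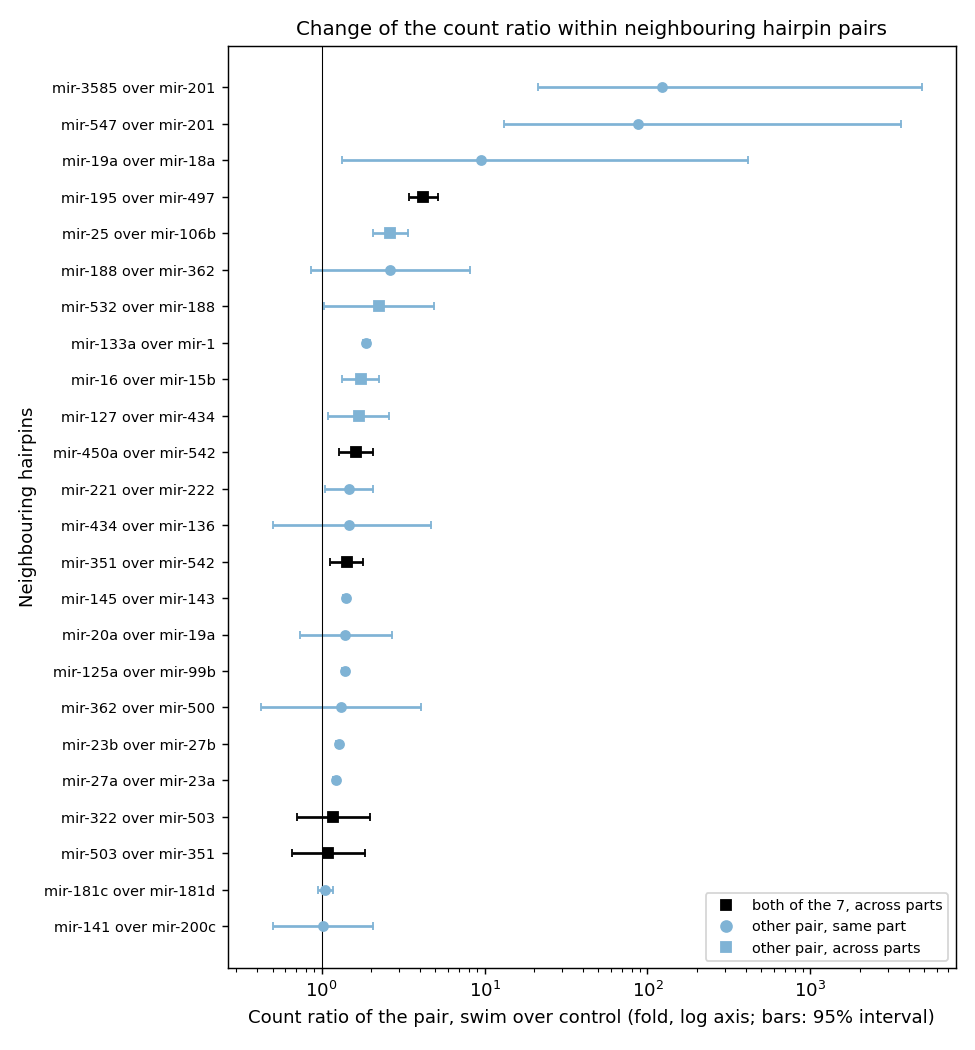
Change of the count ratio, swim over control, within 24 pairs of neighbouring hairpins, on a log axis, with the entry of higher ratio named first and bars for the exact conditional 95% interval; squares mark pairs that cross the parts of the table and black marks pairs among the 7 entries. The pair of mir-195 and mir-497 stands 4th, below 3 pairs with wide intervals, and the 4 pairs of the X chromosome cluster lie between 1.10 and 1.63.

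The entries nearest to each member in level were found by the distance of log2 CPM over the 2 libraries. For mir-195 they were mir-130a at a distance of 0.30 and mir-29c at 0.33, with ratios of 1.33 and 1.78. For mir-497 they were mir-338 at 0.06 and mir-374 at 0.14, with ratios of 0.437 and 0.393. The nearest to mir-322 were mir-146b and mir-107, and to mir-351 they were mir-208a and mir-181b-2. For mir-542 they were mir-128-1 and mir-1839, and for mir-503 mir-132 and mir-547. Only for mir-450a was another of the 7 among the nearest 2, mir-322 at 0.23, after mir-127 at 0.23. Over 2 libraries this measure describes closeness of levels and nothing more.

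Other miRNAs known for acting on the cell cycle or on muscle differentiation were counted from a list of 34 names, of which 25 had a row that was used. Of the 28 entries compared, 1 was called higher and 12 lower (3.47% and 32.9% of all entries), with a median log2 ratio of -0.49 beside -0.59 over all entries. The highest ratios were those of mir-208b, encoded in the slow myosin gene Myh7, at 2.64 (2.58 to 2.71), and of mir-133b, a muscle miRNA, at 1.95 (1.89 to 2.02). The lowest were those of let-7i, a let-7 family member, which was listed at 1 in swim and 145 in control, and of mir-29b-1 and mir-29b-2, which share their counts, at 0.236 (0.204 to 0.273). With median-of-ratios factors the list held 4 higher and 5 lower calls (10.4% and 15% of all entries). It held 3 and 7 with TMM factors (6.36% and 17.9%) and also with unscaled counts (6.94% and 17.3%). Relative to the own part of the table it held 1 and 1 (6.36% and 6.36%).

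The cell type markers were given as summed levels beside these results. The 5 cardiomyocyte entries had 85687 CPM in swim and 68900 CPM in control, with 1 of 5 called higher, mir-208b, and none lower (3.47% and 32.9% of all entries). Most of that sum was mir-133a, with 72772 CPM in swim and 61888 CPM in control, while mir-1 had a ratio of 0.624 and mir-208a, whose direction depends on the scaling, 0.899. The endothelial entry mir-126a had 37987 CPM in swim and 37523 CPM in control. The 2 vascular smooth muscle entries had 187599 CPM in swim and 199692 CPM in control. Most of that sum was mir-143, at a ratio of 0.936 whose direction depends on the scaling, while mir-145 had 1.32 (1.27 to 1.37). The 4 leukocyte entries with a row had 6991 CPM in swim and 7117 CPM in control. Of these, mir-146a had a ratio of 1.07 and the others ratios below 1. The direction of all 4 depends on the scaling, for mir-342 only through the median of its table part. The 3 fibroblast-associated entries had 8847 CPM in swim and 9652 CPM in control, with 1 called lower, mir-214, a call absent under median-of-ratios factors and against the median of its table part. In that list mir-21 had a ratio of 0.866, whose direction depends on the scaling, and mir-199a had 1.25 (1.20 to 1.30). Of the erythroid list mir-144 had 24.8 CPM in swim and 29.3 CPM in control, and mir-451, mir-486 and the leukocyte miRNA mir-223 were not analysed here. The part of cell makeup in the values of the 7 entries was not tested.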

How the data were processed

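Small RNA libraries of left ventricle, 1 per group, were compared. The authors deposited 1 table per library with whole-number counts per hairpin name. The values were taken as raw counts because they are whole numbers with different totals. That does not prove them raw, and the counting intervals rest on this assumption. Per the submitters' processing notes, the names Bowtie 0.12.2, rn4 and rn5 are listed, with no role for any of them. Trimming, the annotation release and the rule for reads with several matches are not stated in the labels. Of 203 rows, the row Others (12.5% of unmarked counts in swim, 5.41% in control) and 9 asterisk rows that repeat an unmarked row were left out. The name let-7e stood in 2 unmarked rows and entered totals only. In 1 of them swim had 821 counts and control 1193, and in the other these 2 numbers were exchanged. The reason is not stated in the labels.

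Counts were scaled to CPM by the remaining total. Ratios have exact conditional binomial intervals from scipy 1.17.1 at 95%, and log2 ratios use a pseudocount of 0.5. Changes between 2 entries have exact conditional odds ratio intervals. The minimum summed count for a comparison was 20. The edgeR package 4.0.16 gave TMM factors only. No test between groups was possible with 1 library each. The ratio rule was tested on simulated data. Named were the 7 members, entries sharing a seed, the 2 nearest entries per member, and the 2 highest and 2 lowest of the list of other cell-cycle miRNAs. Members and lists were chosen with earlier results of these data known. Mature sequences of all 7 members, and of 156 of the 191 entries, were matched in RefSeq.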

Additional observations from a re-analysis of the deposited data

How the results depend on the processing

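The calls depended on the scaling. Of the 7 members, 0 were called higher and 1 lower with the total over miRNA rows. With TMM factors, with median-of-ratios factors and with unscaled counts alike, 1 was higher (mir-195) and 0 were lower. They were 0 higher and 2 lower (mir-497 and mir-542) with Others in the totals, and 0 lower relative to the own part of the table. With the 1.5-fold rule 1 was higher and 2 were lower, and with the 3-fold rule 0 were lower. Over all entries, 6 were higher and 57 lower. The counts were 18 and 26 with median-of-ratios factors, 11 and 31 with TMM factors, 12 and 30 with unscaled counts. Relative to the own part they were 11 and 11. With the 1.5-fold rule 12 were higher, with the 3-fold rule 1 was higher and 26 lower, and with a summed count of at least 100, which compares fewer entries, 36 were lower. The median log2 ratio of all entries moved by 0.59 under median-of-ratios factors, by 0.30 under TMM factors and by 0.39 with unscaled counts. Over 13 alternatives mir-195 was above 0 on the log2 scale in 13 and called higher in 4, and mir-497 was above 0 in 0 and called lower in 8. The fold rules, the count filters and the summing of hairpin copies cannot alter these log2 ratios, and the pseudocounts barely move them. Only the scalings could change the sign, so the 13 alternatives are not separate checks of direction. The change of mir-195 over mir-497 was 4.22-fold under every scaling that multiplies all ratios by 1 factor. Relative to the own part of the table it was smaller, with ratios of 1.64 for mir-195 and 0.905 for mir-497. Depth limits mir-503 most, with 67 counts in all. No paired analysis was possible because each group has 1 library. No call has a check between animals.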
